A study of Mus musculus with 42 samples.

Results

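The genes described here are the claudins and the proteins that build the tight junction with them, 33 genes on 34 probe sets of the array. They were chosen by name: a probe set belonged when the platform annotation gave it 1 gene symbol and that symbol was one of the 33. They are 21 claudins and 12 others, out of 19938 genes on 21789 probe sets with 1 symbol. All 33 were measured, and no filter on low values was applied. RNA was measured on 42 arrays of reproductive tract tissue from adult CD1/129 mice aged 3 to 7 months, 3 arrays for each of 14 groups, and the females were in diestrus. AKO mice (Hoxa9,10,11-/-) are mutant in both copies of the 3 Hoxa genes, and DKO mice (Hoxd9,10,11-/-) in both copies of the 3 Hoxd genes. AKDH mice (Hoxa9,10,11-/-d9,10,11+/-) have the AKO genotype and 1 mutant Hoxd copy, and AHDK mice (Hoxa9,10,11+/-d9,10,11-/-) have the DKO genotype and 1 mutant Hoxa copy. The female groups were oviduct of AKO and WT mice and uterus of AKO, DKO, AKDH, AHDK and WT mice. The male groups were epididymis of AKO and WT mice and vas deferens of AKO, DKO, AKDH, AHDK and WT mice. How the mutant alleles were made is not given here, and the labels name the arrays of a group biological replicates. The comparisons ask what mutation of these homeobox genes does to junction genes in each tissue, and how the tissues of a tract differ.

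Tight junctions seal the space between neighbouring epithelial or endothelial cells. Claudins span the membrane and set which ions and solutes pass: some, such as Cldn1, Cldn3, Cldn4, Cldn5 and Cldn8, mainly tighten the barrier, whereas Cldn2 and Cldn15 form pores for small cations. Ocln, Marveld2 and Marveld3 are the MARVEL proteins of the strand, the junctional adhesion molecules F11r, Jam2 and Jam3 are immunoglobulin-like adhesion proteins, Tjp1, Tjp3, Cgn and Cgnl1 are cytoplasmic scaffold and adaptor proteins, and Pard3 and Pard6b belong to the polarity complex that places the junction. In the reproductive tract these proteins separate the luminal fluid, in which sperm mature or an embryo implants, from the tissue below.

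Each value is a log2 value set against the median array of the sex, because every probe set has a median of 0 over the 21 female and over the 21 male arrays. Levels of different genes, and of females and males, can therefore not be compared. A difference is that of 2 group means, given with its SE. A gene counted as called when limma's Benjamini-Hochberg adjusted p over all 19938 genes was below 0.05. Members are also counted at an unadjusted p below 0.05. The share of all genes at that cut was not computed, so those counts show no excess or lack. In bulk tissue, fewer cells of a type and less RNA per cell cannot be told apart. Hoxa11, one of the mutated genes, was lower in AKO vas deferens (-1.51, limma adjusted p = 0.00961) and in AKDH vas deferens (-1.66, adjusted p = 0.0027) and AKDH uterus (-2.78, adjusted p = 0.0161). In AKO uterus (-2.56) and AKO epididymis (-0.99) its values were below WT without passing the test. In AKO oviduct Hoxa11 differed by -0.56 with overlapping values (limma adjusted p = 0.993), so it did not check that label. Hoxd9 was lower in DKO vas deferens (-0.55, adjusted p = 0.00581) and AHDK vas deferens (-0.49, adjusted p = 0.00885). In the uterus no Hoxd gene was called: Hoxd9, Hoxd10 and Hoxd11 differed from WT by -0.12, 0.18 and -0.17 in DKO and by -0.01, 0.13 and -0.84 in AHDK. The DKO and AHDK uterus labels were therefore not checked by the mutated genes on these arrays, and where the probe sets lie relative to the mutations is not known here. Hoxd9 was also called higher in AKO vas deferens (0.45, adjusted p = 0.0053). Hoxa9 was not called lower in any mutant (0.35 in AKO vas deferens). Marker lists separated the tissues: the mean of 5 oviduct markers was 1.05 to 1.5 in oviduct arrays and that of 5 epididymis markers 2.15 to 5.0 in epididymis arrays, while vas deferens markers were 1.58 to 1.83 in WT vas deferens and only -0.55 to 0.11 in AKO and AKDH vas deferens. Arrays that stood apart were 3: the library labelled WT oviduct replicate 2 (ovary marker mean 2.58), AKDH vas deferens replicate 3 (sperm marker mean 0.42) and AKO epididymis replicate 1 (Cldn2 at 2.98). On the first of these Xist, an RNA of the inactive X chromosome in female cells, was -5.92, against -0.42 to 0.72 on the other 20 female arrays. The ciliated cell marker mean of the same array was 3.66, the lowest of the oviduct arrays. It was 3.83 and 4.11 on the other WT oviduct arrays and 3.82 to 3.94 in AKO oviduct. Why Xist was low there was not tested. Where a call changed without these arrays, the value without them is given.

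Cldn8, a barrier claudin best known from the distal nephron and other tight epithelia, was the junction gene with the largest difference between a mutant uterus and WT uterus. It was lowest in AHDK uterus, at -1.69, -1.30 and -1.32, against 0.66, 0.57 and 0.29 in WT uterus. DKO uterus gave -0.39, -0.34 and -0.30, AKDH uterus 0.14, -0.28 and -0.12, and AKO uterus -0.34, -0.43 and 0. No mutant uterus overlapped the WT uteri, and the AHDK uteri lay below every other uterus array. The difference from WT was -1.94 (SE 0.15, adjusted p = 0.000325) in AHDK, -0.85 (adjusted p = 0.0361) in DKO and -0.59 (adjusted p = 0.0362) in AKDH. In AKO it was -0.76 and missed the threshold (adjusted p = 0.0769).

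**Figure D1:**
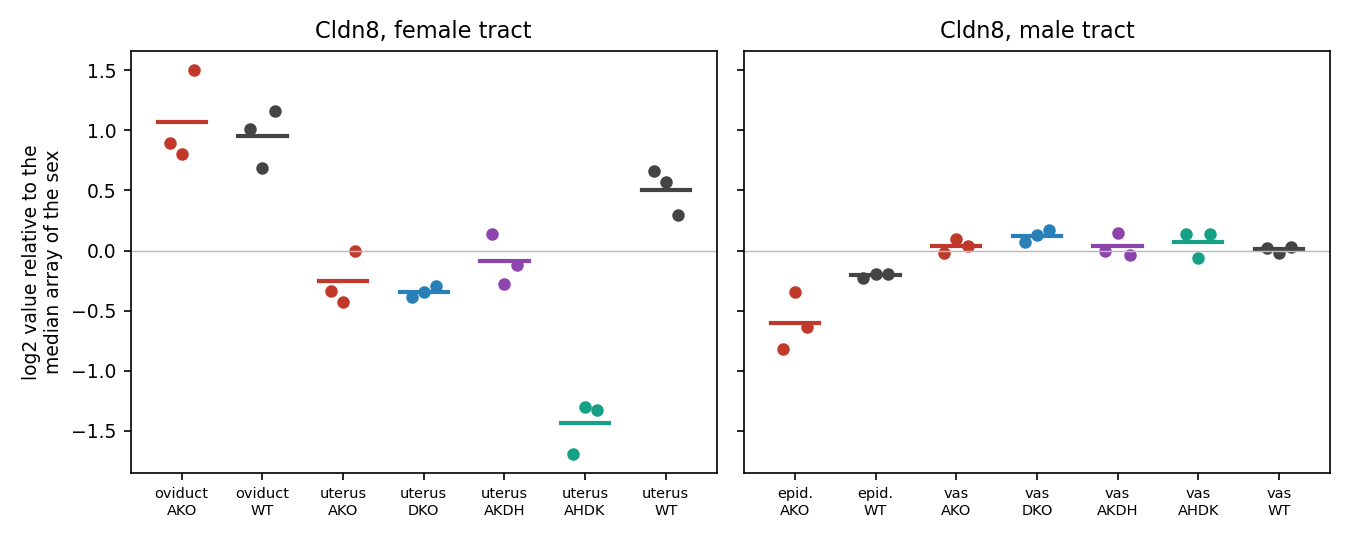
Cldn8 on all 42 arrays, as log2 value relative to the median array of its sex (y axis) by tissue and genotype (x axis), 1 point per array with the group mean as a bar. The 3 AHDK uteri lie between -1.69 and -1.30 and the 3 WT uteri between 0.29 and 0.66, while the vas deferens arrays span -0.06 to 0.17.

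The AHDK difference from WT was called without each of the 6 arrays in turn and spanned -2.05 to -1.82. AHDK uterus was also lower than DKO uterus, by -1.09 (SE 0.15, adjusted p = 0.0454), and Cldn8 was 1 of only 5 genes called there. AKDH and AKO uterus could not be separated (0.17, 95% interval -0.15 to 0.49). The smaller calls for Cldn8 were fragile. The DKO call was lost without any 1 of the 6 arrays (adjusted p up to 0.110). The AKDH call was lost without WT uterus replicate 1 or 2 or AKDH uterus replicate 2 or 3 (adjusted p up to 0.0992), and that between AHDK and DKO in all but 1 of 6 such fits (up to 0.239).

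The mean of the epithelial marker list was 0.11 to 0.17 in AHDK uterus, against -0.41 to -0.12 in WT uterus. With an epithelial score as a covariate the AHDK difference of Cldn8 was -2.05 (adjusted p = 0.000498). In DKO uterus the epithelial list was -0.75 to -0.19, and with the covariate the Cldn8 difference was -0.78 (adjusted p = 0.0691). Other marker lists moved in the same uteri. Macrophage markers were 0.60 to 1.02 in AHDK and 0.30 to 0.94 in DKO uterus, against -0.36 to 0.06 in WT uterus. Basal epithelial markers were 0.42 to 0.90 in AHDK uterus and -0.19 to -0.18 in WT uterus, and uterus markers -0.02 to 0.31 in AHDK uterus and 1.03 to 1.15 in WT uterus. The part of these lists in the Cldn8 result was not tested.

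Few other junction genes passed in the uterus. No member was called in AKO uterus, where 0.0903% of all genes were, and 4 had an unadjusted p below 0.05. In DKO uterus Cldn8 was the 1 member called, against 0.973% of all genes, in AHDK uterus it was again the 1 of 33 (3.53% of all genes), and between AHDK and DKO uterus likewise (0.0251%). In AKDH uterus 2 members were called, both lower (6.06% of members), where 6.58% of all genes were called and 2.65% were called lower. Besides Cldn8 this was Cgnl1, paracingulin, an adaptor protein of tight and adherens junctions. Cgnl1 was -0.34, -0.02 and -0.40 in AKDH uterus and 0.63, 0.69 and 0.20 in WT uterus. The groups did not overlap, and the difference was -0.76 (SE 0.15, adjusted p = 0.0134), or -0.68 (adjusted p = 0.0526) without AKDH uterus replicate 3. Between AKDH and AKO uterus no member was called, where 0% of all genes were, and 2 members had an unadjusted p below 0.05.

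The claudin next to Cldn8 on chromosome 16 did not share its pattern of calls. Cldn17, for which no protein-coding gene lies between it and Cldn8 in the RefSeq table of GRCm38.p6, differed by -0.05 in AHDK uterus (adjusted p = 0.762). Cldn4, another barrier claudin, pointed the other way from Cldn8 in AHDK uterus. It was 1.14, 1.40 and 0.99 there and 0.37, 0.44 and 0.05 in WT uterus, without overlap, but the difference of 0.89 did not pass (adjusted p = 0.0603). Tjp3, a scaffold protein also called ZO-3, was likewise 0.94 above WT in AHDK uterus without passing (adjusted p = 0.0638).

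Among 24 other tight junction and polarity genes, Magi1, a scaffold with several PDZ domains, was called lower for DKO (-0.72, adjusted p = 0.0404), AKDH (-0.73, adjusted p = 0.0139) and AHDK uterus (-1.0, adjusted p = 0.00907). These 3 comparisons share their WT arrays. It was the single call of that list in DKO (0.973% of all genes called) and in AHDK (3.53%). AKDH uterus (6.58%) also had Amotl1, an angiomotin family protein, lower (-0.66) and Ildr2, an angulin of tricellular junctions, higher (1.06). Of 19 adherens junction and desmosome genes, the desmosomal plakophilin Pkp2 was called higher in AKDH (0.61) and AHDK uterus (0.51), and the adhesion protein Nectin3 lower in AKDH uterus (-0.80).

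In the vas deferens, several junction genes were higher in AKO and AKDH, the groups with both Hoxa copies mutant. In AKO vas deferens 3 members were called higher and 1 lower (12.1% of members). Of all genes 9.35% were called there, 4.91% higher and 4.44% lower. In AKDH vas deferens 6 were called higher and 5 lower (33.3% of members), against 24.3% of all genes, 9.57% higher and 14.8% lower. In DKO vas deferens 1 was called (3.03% of members, 5.87% of all genes). AHDK vas deferens had none, where 4.15% of all genes were called and 2 members had an unadjusted p below 0.05. These 4 comparisons share the 3 WT arrays.

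The largest called rise was that of Cldn1, a sealing claudin needed for the skin barrier in mice. Cldn1 was 0.64, 0.66 and 0.68 in AKO vas deferens and 0.63, 0.69 and 0.43 in AKDH vas deferens, against -0.98, -0.64 and -0.01 in WT vas deferens. Every AKO and AKDH array lay above every WT array. The differences were 1.21 (SE 0.20, adjusted p = 0.00304) in AKO and 1.13 (SE 0.20, adjusted p = 0.00199) in AKDH. In DKO (0.19) and AHDK (0.56) vas deferens Cldn1 did not pass.

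Cldn3, also a barrier claudin, was 0.23, 0.20 and 0.21 in AKO vas deferens and 0.16, 0.25 and 0.28 in AKDH vas deferens, and -0.79, -0.42 and -0.18 in WT vas deferens. The AKO and AKDH arrays again lay above all WT arrays, which were themselves widely spread. It was higher by 0.67 in AKO (SE 0.15, adjusted p = 0.0134) and by 0.69 in AKDH (adjusted p = 0.00556). With only the groups compared in the fit, the AKO call was lost (adjusted p = 0.0518). Cgn, cingulin, a cytoplasmic adaptor that ties the junction to actomyosin, was 0.24, 0.25 and 0.28 for AKO, 0.07, 0.22 and 0.01 for DKO, 0.25, 0.32 and 0.26 for AKDH and -0.36, -0.40 and -0.08 for WT vas deferens. Its rise was 0.54 in AKO (adjusted p = 0.00288), 0.38 in DKO (adjusted p = 0.0303) and 0.56 in AKDH (adjusted p = 0.000987). The DKO call held in 1 of 6 fits without 1 array, that without WT vas deferens replicate 3, with an adjusted p of up to 0.121 in the others. It was also lost with the epithelial score as a covariate (0.24, adjusted p = 0.0728).

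**Figure D2:**
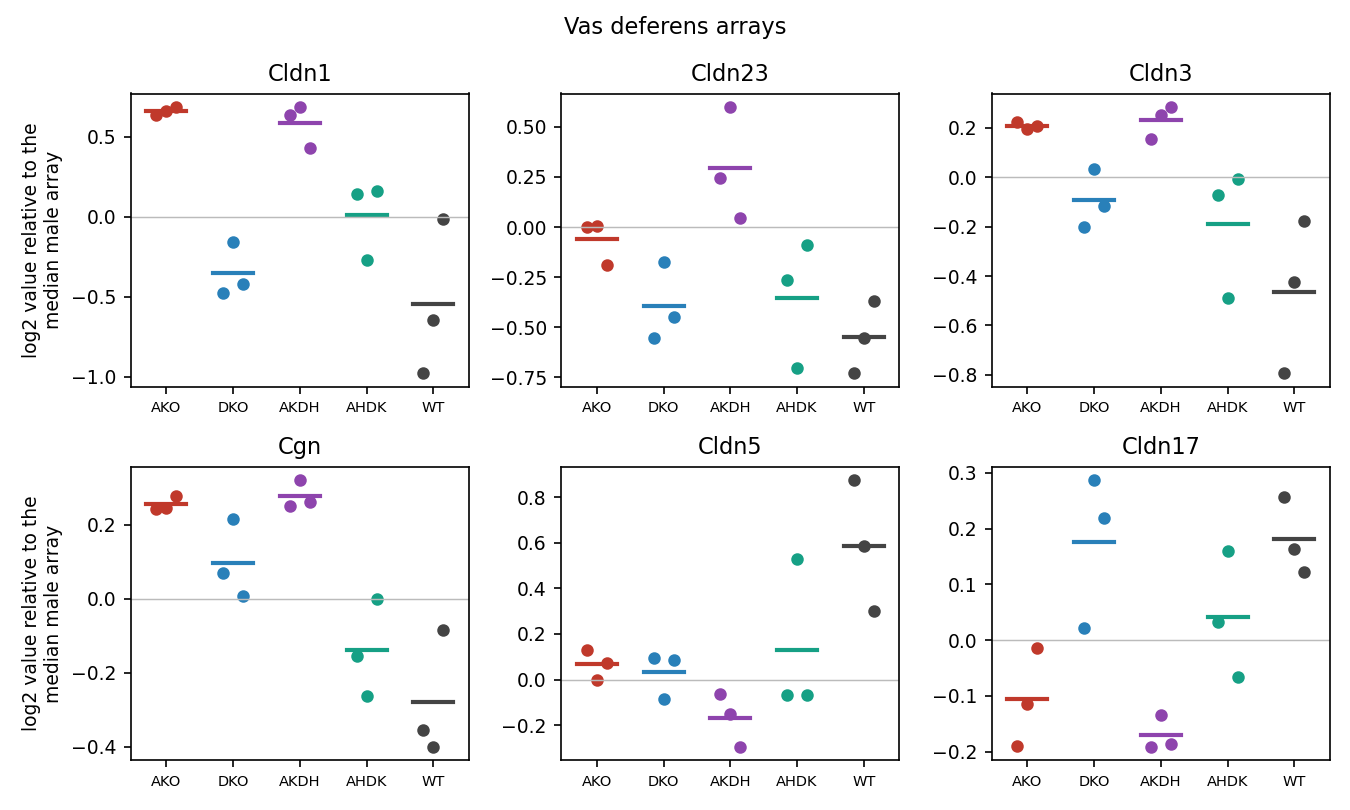
Cldn1, Cldn23, Cldn3, Cgn, Cldn5 and Cldn17 on the 15 vas deferens arrays, as log2 value relative to the median male array (y axis, own scale per panel) by genotype (x axis), 1 point per array with the group mean as a bar. Cldn1 in AKO (0.64 to 0.68) and AKDH (0.43 to 0.69) lies above WT (-0.98 to -0.01), and Cldn5 in AKDH (-0.30 to -0.06) lies below WT (0.30 to 0.87).

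Cldn23 was higher in AKDH vas deferens, at 0.24, 0.60 and 0.04, than in WT vas deferens, at -0.73, -0.55 and -0.37. The groups were apart, with a difference of 0.84 (SE 0.17, adjusted p = 0.00485), while AKO gave 0.49 without passing (adjusted p = 0.107). Cldn14 and the scaffold Tjp1 (ZO-1) completed the 6 that rose in AKDH, by 0.30 and 0.25.

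Among the called members, the largest fall in AKDH vas deferens was that of Cldn5, the main claudin of endothelium, at -0.06, -0.15 and -0.30 there and 0.87, 0.59 and 0.30 in WT. The difference was -0.76 (SE 0.16, adjusted p = 0.00602) and -0.39 (adjusted p = 0.0611) with the epithelial score as a covariate. Its values in the other mutants, none of which passed, were -0.52 for AKO, -0.55 for DKO and -0.46 for AHDK. None of 12 endothelial markers was called in AKDH vas deferens, against 24.3% of all genes. Their mean was -0.10 to 0.16 there and -0.02 to 0.33 in WT. Their part in the result was not tested. Cldn15 was 0.98 below WT in AKDH vas deferens without passing (adjusted p = 0.0809).

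Cldn17 was called lower in both groups with both Hoxa copies mutant, at -0.19, -0.11 and -0.01 in AKO and -0.19, -0.13 and -0.19 in AKDH, against 0.26, 0.16 and 0.12 in WT vas deferens. It fell by 0.35 in AKDH (adjusted p = 0.00728) and by 0.29 in AKO (adjusted p = 0.0384). The AKO call held in 1 of 6 fits without 1 array, that without AKO vas deferens replicate 3, with an adjusted p of up to 0.144. With the epithelial score as a covariate neither passed, at -0.23 in AKO (adjusted p = 0.115) and -0.26 in AKDH (adjusted p = 0.0876). Cldn7 (-0.41), Cldn18 (-0.23) and Cldn11 (-0.23) were the other calls lower in AKDH vas deferens. Cldn7 lost its call without the array that stood apart, AKDH replicate 3 (-0.37, adjusted p = 0.0791), and also without AKDH replicate 1 or WT replicate 2 or 3 (adjusted p up to 0.110). Cldn18 lost it without AKDH replicate 2 (-0.19, adjusted p = 0.0557). Under the epithelial covariate Cldn7 was -0.71 (adjusted p = 0.000793) and Cldn18 -0.27 (adjusted p = 0.0335) in AKDH.

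Marker lists of other cell types also differed between these groups. The mean of the epithelial list was -0.05 to 0.14 in AKO, -0.02 to 0.11 in DKO and 0.03 to 0.16 in AKDH, against -0.27 to 0.06 in WT vas deferens. Of the WT arrays only replicate 3 (0.06) reached these ranges, while WT replicates 1 and 2 were -0.27 and -0.14. All 4 basal epithelial markers (Trp63, Krt5, Krt14 and Krt15) were called higher in AKDH, against 9.57% of all genes. Their mean was 0.27 to 0.50 there and -0.37 to -0.23 in WT. That mean was -0.07 to 0.38 in AKO, also above every WT array, -0.22 to 0.08 in AHDK and -0.52 to -0.31 in DKO. With the epithelial score as a covariate Cldn1 was higher by 0.91 in AKO (adjusted p = 0.00126) and 0.65 in AKDH (adjusted p = 0.00907). Under the same covariate the AKDH rises were 0.34 for Cldn3 (adjusted p = 0.0425) and 0.37 for Cgn (adjusted p = 0.00777). Smooth muscle markers were -0.36 to 0.09 in AKO and -0.40 to -0.07 in AKDH, against 0.23 to 0.68 in WT. Adipocyte markers were 0.27 to 1.35 in AKO and 1.14 to 1.49 in AKDH, against -0.99 to 0.17 in WT. Sperm markers were -1.30 to -1.02 in AKO and -1.49 to 0.42 in AKDH, against 0.16 to 0.89 in WT. The part of these cells in the rises and falls was not tested.

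No member was called between AKDH and AKO vas deferens, where 1.29% of all genes were, or between AHDK and DKO vas deferens, where 0.366% were. Unadjusted p-values below 0.05 were found for 4 and 2 members. Cldn1 differed by -0.08 between AKDH and AKO, and Cldn8 by 0.00 (95% interval -0.14 to 0.14). Cldn8 was -0.06 to 0.17 over all 15 vas deferens arrays, and its differences from WT were between 0.02 and 0.11, none of which passed.

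The promoters of Cldn1, Cldn3 and Cgn are shown because these 3 genes rose together in AKO and AKDH vas deferens. They are RefSeq windows of GRCm38.p6, 250 bases before to 50 after the annotated start, 5′ to 3′ on the gene's strand. Capitals mark TTTATG or TTTACG, the core that Hox proteins of this class favour, or AACCGG, the core of Grainyhead-like epithelial factors, on either strand. The AACCGG core is partly its own reverse complement, so its 2 strands can overlap.
Cldn1, chr16:26371790-26372089, minus strand: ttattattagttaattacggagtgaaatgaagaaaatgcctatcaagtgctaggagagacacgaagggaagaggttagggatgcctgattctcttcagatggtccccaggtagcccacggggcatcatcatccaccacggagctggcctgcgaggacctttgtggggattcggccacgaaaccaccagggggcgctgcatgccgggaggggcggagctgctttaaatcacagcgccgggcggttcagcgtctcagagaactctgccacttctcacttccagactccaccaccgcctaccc
Cldn3, chr5:134985964-134986263, plus strand: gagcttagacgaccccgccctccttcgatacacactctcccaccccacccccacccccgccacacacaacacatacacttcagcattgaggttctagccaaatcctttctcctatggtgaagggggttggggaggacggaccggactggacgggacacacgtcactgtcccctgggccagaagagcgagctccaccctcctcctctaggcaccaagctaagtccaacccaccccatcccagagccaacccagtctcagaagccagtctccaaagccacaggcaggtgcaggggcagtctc
Cgn, chr3:94786433-94786732, minus strand: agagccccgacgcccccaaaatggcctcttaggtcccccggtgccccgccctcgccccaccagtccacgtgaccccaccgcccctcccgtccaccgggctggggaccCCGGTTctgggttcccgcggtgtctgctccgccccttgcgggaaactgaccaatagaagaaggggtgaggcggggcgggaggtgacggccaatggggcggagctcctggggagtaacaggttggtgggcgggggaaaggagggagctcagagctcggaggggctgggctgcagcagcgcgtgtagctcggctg
Only the Cgn window held one of these motifs, 1 AACCGG core on the opposite strand (CCGGTT). Windows were found for 27 of the 33 members (39 windows). AACCGG was in 5 of these 39 windows (Cgn, Cldn7, Cldn14, Ocln and Tjp3) and in 6.83% of all 32851 windows. TTTATG was in 2 of the 39 (Cldn2 and Cldn14) and in 11.9% of all windows. TTTACG was in 3 of the 39 (Cldn10 and Cldn12) and in 3.03% of all windows.

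Among the 24 other tight junction genes, AKO vas deferens had 3 called higher and 2 lower, and AKDH vas deferens 2 higher and 5 lower. Of all genes 4.91% were called higher and 4.44% lower in AKO, and 9.57% higher and 14.8% lower in AKDH. Esam, an endothelial adhesion molecule, was higher by 0.86 in AKO (adjusted p = 0.00677) and 1.43 in AKDH (adjusted p = 0.000161). Cxadr, the coxsackievirus and adenovirus receptor of epithelial junctions, was higher by 0.58 in AKO and 0.44 in AKDH. Igsf5, also called JAM4, was lower in all 4 mutants (-0.58 in AKO, -0.35 for DKO, -0.64 for AKDH and -0.46 for AHDK), the one gene of the 2 lists called against WT in all 4. The angulin Ildr1 was lower in AKO (-0.46) and AKDH (-0.45). Of the 19 adherens junction and desmosome genes, Ctnna1, alpha-catenin, was lower in AKO (-0.38) and AKDH (-0.37) and higher in DKO (0.26). AKDH vas deferens also had the nectins Nectin1 (0.63) and Nectin4 (0.50) higher, and the desmosomal plakins Ppl (-0.49) and Evpl (-0.28) lower.

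**Figure D3:**
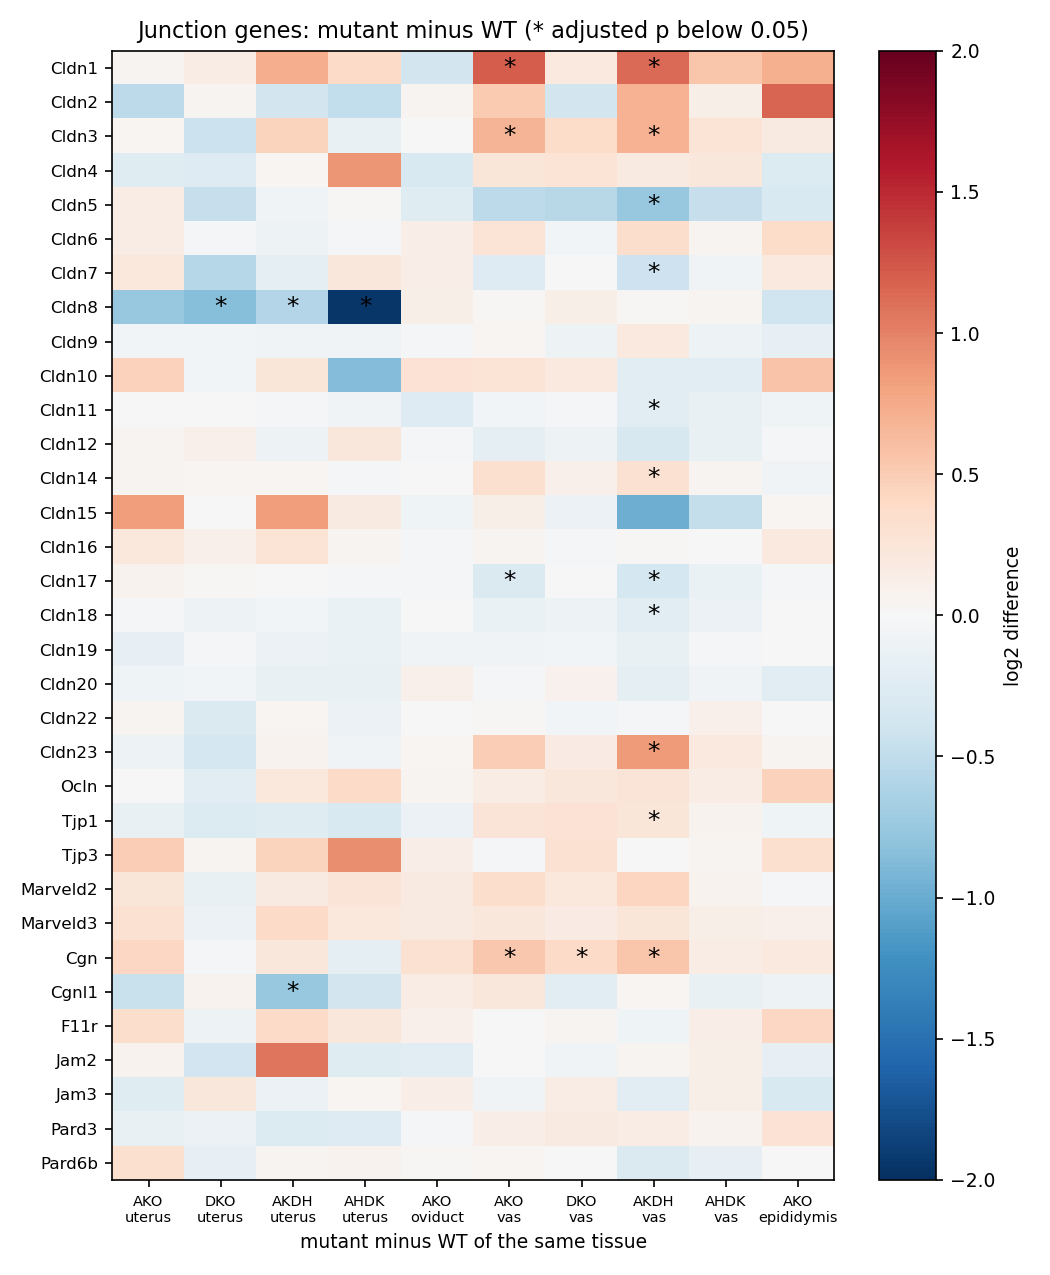
Difference of each of the 33 junction genes (rows) between a mutant group and WT of the same tissue (columns), as log2 difference of group means of 3 arrays each on the colour scale. Stars mark adjusted p below 0.05: there are 20 among 330 cells, in 13 genes, with Cldn8 in 3 uterus columns (down to -1.94) and Cldn1 in 2 vas deferens columns (1.21 and 1.13).

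AKO epididymis, taken at its caudal part, gave no member passing the test against WT epididymis, where 0.782% of all genes were called. At an unadjusted p below 0.05 there were 8 members, without the share of all genes at that cut. Tjp3 had the smallest adjusted p, at 0.01, 0.00 and 0.06 in AKO epididymis and -0.35, -0.32 and -0.23 in WT epididymis, a difference of 0.33 (adjusted p = 0.0805). Cldn1 was 0.00, 0.32 and 0.53 in AKO epididymis and -0.37, -0.52 and -0.42 in WT epididymis. These values did not overlap, and the difference was 0.72 (adjusted p = 0.0873). Cldn8 was -0.82, -0.35 and -0.63 in AKO epididymis and -0.23, -0.20 and -0.20 in WT epididymis, a difference of -0.39 (adjusted p = 0.202).

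Cldn2 and Cldn10, both claudins that form ion channels, set AKO epididymis replicate 1 apart. Cldn2 was 2.98, -0.15 and -0.03 in AKO epididymis, against -0.39, -0.30 and -0.01 in WT. Cldn10 was 1.92, 0.24 and 0.00 in AKO epididymis, against 0.13, 0.36 and -0.03 in WT. On the other AKO epididymis arrays both genes lay within the WT range. Without replicate 1, 1 member was called, which is not named here. The share of all genes called in that fit is not given. Sperm markers were -1.14 to -0.76 in AKO epididymis and 2.28 to 3.51 in WT epididymis, and their part in these values was not tested.

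In the oviduct the AKO genotype left no called difference: no member passed, nor did any of the 19938 genes (0%), and 1 member had an unadjusted p below 0.05. The member differences lay between -0.36 and 0.31, and their 95% intervals within -0.97 to 0.82. Cldn8 was 0.89, 0.81 and 1.5 in AKO oviduct and 1.01, 0.68 and 1.16 in WT oviduct, which overlap, and its difference was 0.11 (95% interval -0.42 to 0.65).

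Between oviduct and uterus, the largest called differences were those of a pore claudin and an adhesion molecule. In WT mice 7 members were called higher and 5 lower in oviduct than in uterus (36.4% of members), against 23.9% of all genes, 14.5% higher and 9.39% lower. In AKO mice 4 were higher and 2 lower (18.2% of members), against 17.8% of all genes, 10.7% higher and 7.09% lower. Cldn2 was 2.47, 2.00 and 2.91 in WT oviduct, against -0.57, 1.07 and 0.00 in WT uterus. In AKO mice Cldn2 was 2.53, 2.35 and 2.65 in oviduct and -0.60, -0.31 and -0.15 in uterus. Every oviduct array was above every uterus array of its genotype. The difference was 2.29 in WT (SE 0.37, adjusted p = 0.000268) and 2.86 in AKO (adjusted p = 2.93e-05). After quantile normalisation the WT difference of Cldn2 was 0.96 and did not pass (adjusted p = 0.192). Ciliated cell markers were 3.82 to 3.94 in AKO oviduct and -0.16 to 0.09 in AKO uterus, and 3.66 to 4.11 in WT oviduct and -0.02 to 0.06 in WT uterus. Their part in the tissue differences was not tested.

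The promoter of Cldn2 is shown because Cldn2 was the member with the largest tissue difference and its window holds a Hox core (TTTATG, in capitals) on the gene's strand. TTTATG was in 2 of 39 member windows and in 11.9% of all windows. Cldn2 was called in no mutant against WT, and use of this core was not tested.
Cldn2, chrX:139800558-139800857, plus strand: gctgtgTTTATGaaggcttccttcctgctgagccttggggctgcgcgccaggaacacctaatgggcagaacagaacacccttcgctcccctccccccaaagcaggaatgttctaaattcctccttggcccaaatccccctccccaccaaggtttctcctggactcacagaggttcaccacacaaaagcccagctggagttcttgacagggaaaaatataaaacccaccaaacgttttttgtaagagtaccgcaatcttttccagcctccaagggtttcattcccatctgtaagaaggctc

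Jam3, a junctional adhesion molecule, was 1.69, 1.59 and 2.05 in WT oviduct and -0.04, -0.33 and 0.01 in WT uterus. AKO oviduct gave 1.79, 1.75 and 2.18, and AKO uterus -0.64, -0.16 and -0.29. The tissues were far apart in both genotypes, with differences of 1.90 in WT (adjusted p = 0.000568) and 2.27 in AKO (adjusted p = 0.000121). Cldn15, the other cation pore claudin, was 0.50, 0.28 and 1.27 in WT oviduct and -0.12, -0.98 and -0.97 in WT uterus, a difference of 1.37 (adjusted p = 0.00167), or an adjusted p of 0.0528 with only the groups compared. In AKO mice its difference was 0.44 and did not pass. Marveld3 was higher in WT oviduct by 0.65 (adjusted p = 0.0206), a call lost without WT uterus replicate 2 or 3 or WT oviduct replicate 3 (0.43, adjusted p = 0.133, without the last). F11r, Cldn22 and Cldn11 were the other members called higher in WT oviduct, and Cldn22 also in AKO oviduct (0.47, adjusted p = 0.032). The AKO call for Cldn22 was lost with the replicate number as a block (adjusted p = 0.0864), without AKO oviduct replicate 3 (0.26, adjusted p = 0.161) and without any 1 AKO uterus array (up to 0.102).

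Cgnl1 and Cldn4 were lower in the oviduct. Cgnl1 was -0.21, -0.47 and -0.77 in WT oviduct and 0.63, 0.69 and 0.20 in WT uterus, a difference of -0.99 (SE 0.15, adjusted p = 0.000146). Cldn4 was -0.50, -0.82 and -0.64 in WT oviduct and 0.37, 0.44 and 0.05 in WT uterus. In AKO mice Cldn4 was -1.33, -1.21 and -0.35 in oviduct and 0.00, 0.15 and -0.01 in uterus. The tissues did not overlap for Cldn4 in either genotype, and it was lower by -0.94 in WT (adjusted p = 0.0149) and -1.01 in AKO (adjusted p = 0.0129). Without the library labelled WT oviduct replicate 2, the WT difference was -0.86 (adjusted p = 0.0509), and without WT uterus replicate 2 it was -0.87 (adjusted p = 0.0533). The AKO call was lost without AKO oviduct replicate 1 (-0.83, adjusted p = 0.0664) or 2 (-0.89, adjusted p = 0.0578), and after quantile normalisation (-0.88, adjusted p = 0.0904). Cldn23 (-0.82), Cldn20 (-0.33) and Pard3 were also lower in WT oviduct. The call for Cldn23 held in 1 of 6 fits without 1 array, that without WT uterus replicate 2 (adjusted p up to 0.114 in the others).

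Cldn5 was lower in AKO oviduct, at -0.68, -0.13 and -0.73, than in AKO uterus, at 0.08, 0.60 and 0.12. Its difference of -0.78 (adjusted p = 0.021) was lost without AKO uterus replicate 2 or AKO oviduct replicate 1 or 3 (adjusted p up to 0.0944). Of 12 endothelial markers, 10 were called lower in the same comparison, against 7.09% of all genes. Their mean was -0.98 to -0.41 in AKO oviduct and 0.17 to 0.43 in AKO uterus, and their part was not tested.

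Cldn8 was called higher in AKO oviduct than in AKO uterus (1.32, SE 0.18, adjusted p = 5.99e-05), while the WT difference was 0.45 (adjusted p = 0.089), or -0.01 after quantile normalisation and 0.58 (adjusted p = 0.0446) without the library labelled WT oviduct replicate 2. The interaction of genotype and tissue, which tests whether the AKO effect differs, was 0.88 for Cldn8 and did not pass (95% interval 0.33 to 1.42, adjusted p = 0.812). No member passed in this interaction, nor any gene (0%), and 3 members had an unadjusted p below 0.05.

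**Figure D4:**
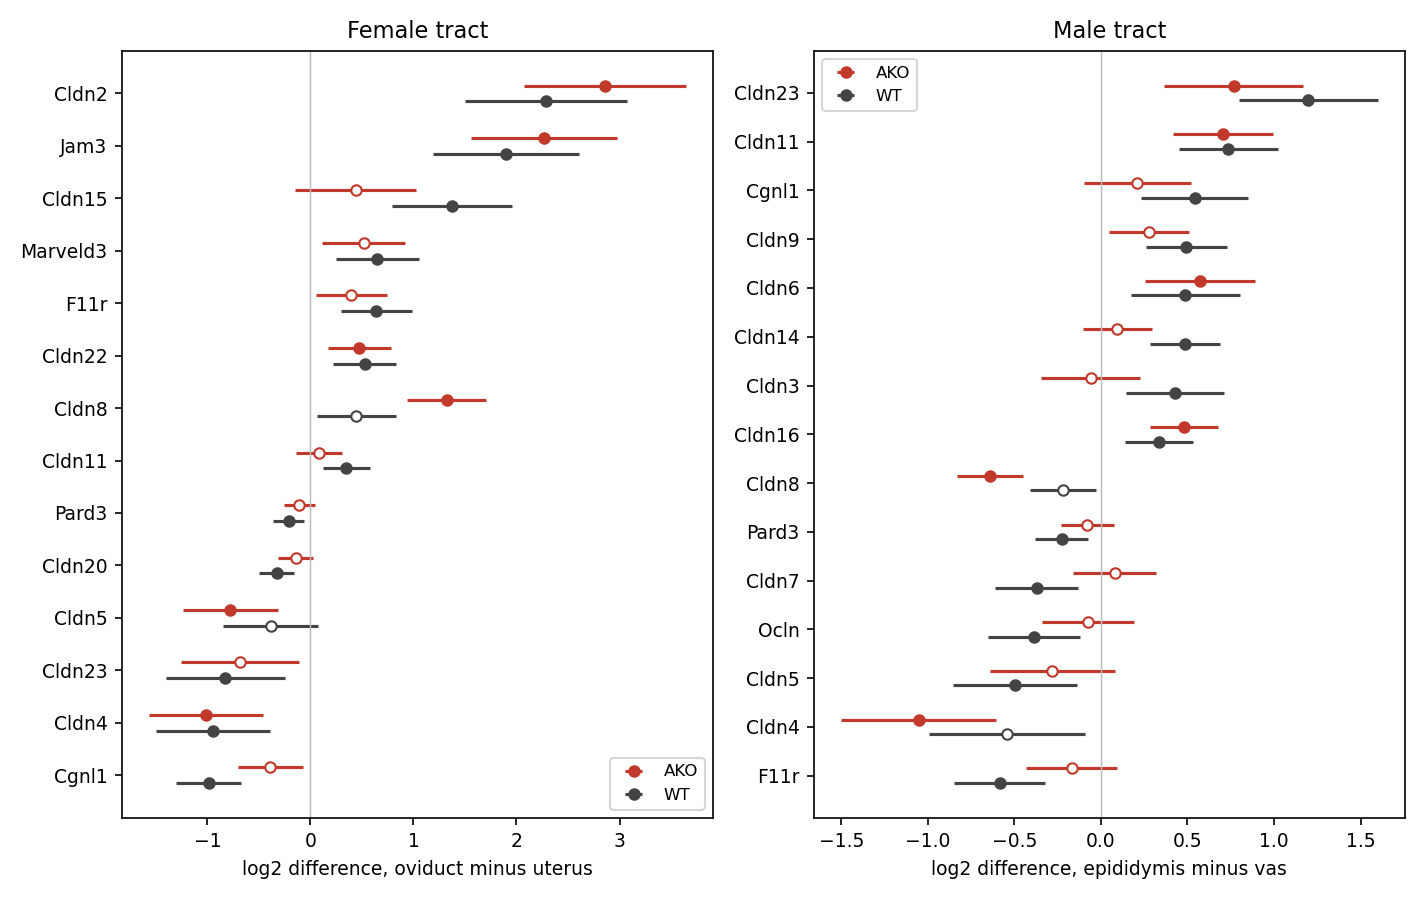
Difference between the 2 tissues of a tract for every junction gene called in AKO or WT mice (rows), as log2 difference of group means with its 95% interval (x axis), AKO above WT in each row. Filled points passed an adjusted p below 0.05: Cldn2 (AKO 2.86, WT 2.29) and Jam3 (AKO 2.27, WT 1.90) lie farthest right in the female panel, Cldn23 (AKO 0.77, WT 1.20) in the male panel.

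Of 24 other tight junction genes, 8 were called higher and 2 lower in WT oviduct than WT uterus (14.5% and 9.39% of all genes). Ildr2 led with 2.67 in WT (adjusted p = 1.04e-06) and 1.39 in AKO. The atypical protein kinase C Prkcz was higher in both genotypes (0.86 in WT, 0.67 in AKO), and the transcription factor Ybx3, which binds ZO-1, was lower (-0.31 in WT, -0.40 in AKO). Of the 19 adherens junction and desmosome genes, Pkp2 was higher (1.42 in WT, 0.98 in AKO) and Nectin3 lower (-0.84 in WT, -0.77 in AKO).

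Between epididymis and vas deferens, WT mice had 8 members called higher and 5 lower in epididymis (39.4% of members), against 28.1% of all genes, 11.2% higher and 16.8% lower. AKO mice had 4 higher and 2 lower (18.2% of members), against 15.5% of all genes, 7.15% higher and 8.31% lower. With the replicate number as a block, which joins samples of the same number, the AKO count was 10, 5 in each direction. The share of all genes called in that fit is not given here. Cldn23 was 0.36, 0.73 and 0.86 in WT epididymis, against -0.73, -0.55 and -0.37 in WT vas deferens. AKO epididymis gave 0.40, 1.00 and 0.72 for Cldn23, and AKO vas deferens 0.00, 0.01 and -0.19. The tissues did not overlap in either genotype. The difference was 1.20 in WT (SE 0.19, adjusted p = 0.000154) and 0.77 in AKO (adjusted p = 0.0114), or 0.62 (adjusted p = 0.0502) in AKO without epididymis replicate 2.

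Cldn11, known from myelin and from the Sertoli cell barrier of the testis, was 1.09, 0.77 and 0.37 in WT epididymis and 0.06, -0.03 and 0.00 in WT vas deferens. It was higher by 0.74 in WT (adjusted p = 0.000576) and by 0.71 in AKO (adjusted p = 0.00197). Cldn6 and Cldn9, claudins of embryonic and inner ear epithelia that lie next to each other on chromosome 17, were both called higher in WT epididymis, by 0.49 each. In AKO mice Cldn6 was higher by 0.57 (adjusted p = 0.0154), or 0.43 (adjusted p = 0.0739) without epididymis replicate 1, and Cldn9 by 0.28 without passing. Cldn16, which serves magnesium uptake in the kidney, was higher in WT (0.34) and AKO epididymis (0.48, adjusted p = 0.00218). Cgnl1 was higher by 0.54 in WT (adjusted p = 0.0098), or 0.46 (adjusted p = 0.05) without WT epididymis replicate 2. Cldn14 and Cldn3 completed the 8 in WT.

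F11r, also called JAM-A, was the largest fall among the members called in WT epididymis, at -0.55, -0.62 and -0.32 there and -0.13, -0.02 and 0.41 in WT vas deferens. The groups were apart and the difference was -0.58 (SE 0.12, adjusted p = 0.00177). Ocln, occludin, was -0.65, -0.43 and -0.54 in WT epididymis and -0.36, -0.25 and 0.15 in WT vas deferens. Its difference of -0.39 (adjusted p = 0.0291) was lost without WT vas deferens replicate 3 (-0.24, adjusted p = 0.168) or WT epididymis replicate 1 or 3. Marveld2, the neighbour of Ocln on chromosome 13 and the tricellular MARVEL protein, differed by 0.04 (adjusted p = 0.88).

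Cldn5 (-0.50), Cldn7 (-0.37) and Pard3 (-0.23) were also called lower in WT epididymis. For Cldn5 the groups overlapped, at 0.42, -0.19 and 0.04 in WT epididymis and 0.87, 0.59 and 0.30 in WT vas deferens, and the call was lost in 4 of 6 fits without 1 array, namely WT vas deferens replicate 1 or 2 or WT epididymis replicate 2 or 3 (-0.35, adjusted p = 0.18, without the first). Of 12 endothelial markers 5 were called lower in the same comparison, against 16.8% of all genes, and their part was not tested. Cldn7 lost its call without WT vas deferens replicate 3 (-0.23, adjusted p = 0.123) or WT epididymis replicate 1 or 2. In AKO mice the members called lower were Cldn4 and Cldn8. Cldn4 was -0.53, -1.35 and -1.02 in AKO epididymis and 0.19, 0.07 and 0.00 in AKO vas deferens (difference -1.05, adjusted p = 0.00277), while the WT difference of -0.54 did not pass. Cldn8 was lower by -0.64 in AKO (adjusted p = 0.000137) while the WT difference was -0.22 (adjusted p = 0.0819). The WT difference passed without the arrays that stood apart (adjusted p = 0.03) and with only the groups compared (adjusted p = 0.0186).

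The interaction of genotype and tissue in the male tract called no member, against 7.22% of all genes. An unadjusted p below 0.05 was found for 8 members, without the share of all genes at that cut. Cldn8 came nearest, at -0.42 (95% interval -0.69 to -0.15, adjusted p = 0.0577), and passed without AKO epididymis replicate 2 (-0.55, adjusted p = 0.00483). The differences between AKO and WT mice in which members were called were therefore not shown by the test itself.

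Among the other tight junction genes, 8 of 24 were called lower and none higher in WT epididymis than in WT vas deferens, with Ildr1 (-1.69, adjusted p = 8.47e-06) and Marveld1 (-1.27) among them. Of all genes 16.8% were called lower and 11.2% higher there. The 3 catenins Ctnna1 (-0.84), Ctnnd1 (-0.56) and Ctnnb1 (-0.44) were lower in WT epididymis, while the desmosomal Perp (0.41), Dsc2 (0.79) and Dsg2 (0.39) were higher. In AKO mice Dsg2 (0.80) and Dsc2 (0.93) were again higher and Ctnna1 (-0.38) and Ctnnd1 (-0.27) lower.

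In all, 26 of the 33 members were called in at least 1 of the 20 comparisons. Cldn8 had the most calls, 6, of which 5 were falls. The 7 never called were Cldn10, Cldn12, Cldn19, Tjp3, Marveld2, Jam2 and Pard6b. Cldn19, a kidney and Schwann cell claudin, differed least among them, between -0.16 and 0.10. Jam2, an endothelial adhesion molecule, differed most, by up to 1.08 in AKDH uterus (adjusted p = 0.169), where it was 1.20, 0.12 and 0.70, against -0.77, -0.98 and 0.55 in WT uterus.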

How the data were processed

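RNA from fresh tissue (300 ng) was hybridised to Affymetrix whole-transcript arrays, per the labels' protocols. The authors deposited log2 values for 28856 probe sets. The log base, summarisation and normalisation were not given in the sources used here. Base 2 was taken, the centring (median 0 per sex) was read from the values, whose array medians ran from -0.0538 to 0.0371, and a higher value was read as more RNA. Depth is replaced by the number of arrays, and signal over background is unknown.

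Probe sets with 1 symbol were averaged per gene (19938 genes, 1621 probe sets with several symbols and 5446 with none left out). Cldn10 had 2 probe sets. limma 3.58.1 in R 4.3.3 (lmFit, eBayes) was fitted within a tissue with all its genotypes, or within a sex for tissue comparisons, and tested on simulated data. P-values measure the spread between these arrays. Arrays of the same replicate number had correlated deviations from their group means (all 3 correlations above 0.1) in some comparisons. These were AKO and WT oviduct, AKO oviduct and uterus, and epididymis and vas deferens within each genotype. The sample titles give replicate numbers and no pairing, and AKO and WT oviducts are of different mice. The main fits used no pairing.

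Members and lists were chosen with earlier results of these data known. Named were Cldn8 everywhere, up to 4 called rises and falls per comparison, and up to 3 per direction of the other junction lists. Further called members, neighbouring claudins and members that came near the threshold were named after their values were seen. Alternatives were quantile normalisation, the probe set with the largest SD, a filter on spread, a fit of only the groups compared, the replicate block, an epithelial covariate, and arrays left out.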

Additional observations from a re-analysis of the deposited data

How the results depend on the processing

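Of 46 calls named by rule, 21 passed under every alternative run, among them Cldn8 in AHDK uterus, Cldn1 and Cgn in AKO and AKDH vas deferens, and Jam3 in both oviduct comparisons. No value with a call reversed. After quantile normalisation the members called were 0 in DKO uterus, 7 in AKO vas deferens, 0 in DKO vas deferens and 4, all lower, in the male interaction. With only the groups compared they were 0 in DKO uterus, 0 in AKDH uterus, 2 in AHDK uterus, 0 between AHDK and DKO uterus and 0 in DKO vas deferens, so the Cldn8 and Cgn calls were lost where the count was 0. With the replicate block they were 1 in AKDH uterus, 0 between AHDK and DKO uterus, 2 in DKO vas deferens and 10 between AKO epididymis and AKO vas deferens, and the block moved no other count by over 1.5 times. The first 3 of these join samples that share only a number. With the epithelial covariate they were 0 in DKO uterus, 2 in AHDK uterus, 0 between AHDK and DKO uterus, 2 in DKO vas deferens, Cgn not among them (adjusted p = 0.0728), and 1 between AHDK and DKO vas deferens. Over genes of above-median spread they were 3 in AHDK uterus and 7 in AKDH vas deferens, with fewer genes tested. Without the arrays that stood apart they were 2 in DKO vas deferens and 1 in AKO epididymis. The share of all genes called under each alternative is not given here, so these counts show no excess or lack of members. The cause of these changes was not tested. Besides those given with the results, named calls lost with only the groups compared were Cgnl1 in AKDH uterus (adjusted p = 0.108), Cldn17 in AKO (0.0517) and Cldn7 in AKDH vas deferens (0.0993), Cldn22 in AKO oviduct (0.126), Marveld3 in WT oviduct (0.0908), and Cldn5 (0.13), Ocln (0.101) and Cldn7 (0.0946) in WT epididymis. After quantile normalisation they were Cldn7 (0.0884) and Cldn18 (0.0594) in AKDH vas deferens, Cldn23 in WT oviduct (0.124), and Ocln (0.241) and Cldn7 (0.0807) in WT epididymis.

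Leaving out 1 array at a time gave 0 to 0 calls in DKO uterus, 0 to 2 in AKDH uterus, 1 to 2 in AHDK uterus, 0 to 1 between AHDK and DKO uterus, 3 to 6 in AKO vas deferens, 0 to 2 in DKO vas deferens, 7 to 11 in AKDH vas deferens, 0 to 1 in AHDK vas deferens, 0 to 1 in AKO epididymis, 6 to 11 between WT oviduct and uterus, 4 to 5 between AKO oviduct and uterus, 8 to 13 between WT epididymis and vas deferens, 5 to 7 between AKO epididymis and vas deferens, and 0 to 3 in the male interaction. The lowest counts came without WT vas deferens replicate 2 (7 in AKDH vas deferens), WT oviduct replicate 3 (6) and WT epididymis replicate 2 or 3 (8). These counts too are given without the share of all genes called in each fit.

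Centring removed signal over background, so a background correction and a filter on dim probe sets were not run. Slide and scan date were not used here. The number of arrays, 3 a group, limits the precision.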
